A study of Mus musculus with 12 samples.

Results

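Transcripts of the unfolded protein response and the integrated stress response were followed in heart and cerebrum of mice gavaged with phosphatidylserine (PS), a phospholipid of cell membranes, or with the vehicle, medium-chain triglycerides (MCT). The genes were Hspa5, Pdia6, Dnajb9, Herpud1, Xbp1, Atf4, Atf3, Chac1, Trib3 and Ddit3. A gene entered when the platform annotation gave it a transcript cluster, the array's unit of summary for 1 transcribed locus, with that symbol alone. Of the 10 genes, 9 were measured in this way, among 18820 symbols measured alone in the series. Ddit3 shared its only transcript cluster with the neighbouring and overlapping gene Mars1 and was left out.

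The mice were of strain C57BL/6J, and every array carries the genotype label humanized knock-in IKBKAP FDloxP/+, so that by this label the MCT controls carried the allele too. IKBKAP encodes a subunit of Elongator, and its splicing mutation causes familial dysautonomia (FD), in which sensory and autonomic neurons develop and survive poorly. PS at 200 mg/kg or MCT was given by gavage every other day in 100 µl, from 4 months of age for 3 months. There were 12 arrays, 3 for each of cerebrum MCT, cerebrum PS, heart MCT and heart PS. The labels conflict on 2 points: the series design speaks of 6 FD mice and the growth protocol of 3 FD and 3 wild-type mice, and the PS dose is given per kg in the protocol and per day in the source names. The genotype of the controls is therefore not settled, and if the wild-type mice were those of 1 treatment, genotype and treatment cannot be told apart. Arrays of a group are given as biological replicates, with nothing said in the labels on whether tissues with the same number are from the same animal. With 6 mice in the series design and 12 arrays, some heart and cerebrum arrays may come from the same mice. Heart PS 2 and cerebrum PS 2 differed in sex pattern, as given below, so as labelled these 2 arrays cannot be taken as 1 animal. No other heart PS array had the sex pattern of cerebrum PS 2 either, so renumbering does not remove the conflict.

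The unfolded protein response relays an excess of unfolded protein in the endoplasmic reticulum (ER) to the nucleus through the sensors IRE1, PERK and ATF6. IRE1 splices Xbp1 mRNA into the form that encodes an active transcription factor, cleaved ATF6 drives ER chaperones, and PERK phosphorylates eIF2, which slows translation in general while favouring translation of Atf4. The integrated stress response shares the eIF2 step with other kinases, which sense amino acid shortage, haem shortage and double-stranded RNA. A value per transcript cluster reports mRNA level only and shows neither Xbp1 splicing nor the translation of Atf4. Heart muscle and neurons both depend on ER protein folding for calcium handling proteins, channels and receptors.

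The promoters of 5 genes are shown here because the letters of a known stress element lie in them. All 10 genes matched an entry of the RefSeq promoter table on build GRCm38.p6, and the windows are the 250 bases before the annotated start, 5′ to 3′ on the gene's strand, with the matched motif in capitals. Hspa5 (chr2:34771840-34772089) and Pdia6 (chr12:17266339-17266588) hold the ER stress element, and Herpud1 (chr8:94386179-94386428) holds ER stress element II and a CARE, the site type bound by ATF4 with C/EBP partners. Chac1 (chr2:119350992-119351241) and Atf3 (chr1:191183334-191183583) hold a CARE. Atf3 lies on the minus strand and the other 4 genes on the plus strand.
Hspa5: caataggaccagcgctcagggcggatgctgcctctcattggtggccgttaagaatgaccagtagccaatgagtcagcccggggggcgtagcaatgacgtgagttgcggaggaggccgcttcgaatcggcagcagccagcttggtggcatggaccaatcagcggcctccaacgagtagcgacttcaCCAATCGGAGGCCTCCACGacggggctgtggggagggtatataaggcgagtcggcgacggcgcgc
Pdia6: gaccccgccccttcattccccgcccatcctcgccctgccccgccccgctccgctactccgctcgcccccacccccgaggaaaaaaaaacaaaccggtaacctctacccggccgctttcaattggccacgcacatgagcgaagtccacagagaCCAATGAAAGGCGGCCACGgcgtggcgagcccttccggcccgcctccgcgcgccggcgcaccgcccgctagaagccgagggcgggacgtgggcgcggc
Herpud1: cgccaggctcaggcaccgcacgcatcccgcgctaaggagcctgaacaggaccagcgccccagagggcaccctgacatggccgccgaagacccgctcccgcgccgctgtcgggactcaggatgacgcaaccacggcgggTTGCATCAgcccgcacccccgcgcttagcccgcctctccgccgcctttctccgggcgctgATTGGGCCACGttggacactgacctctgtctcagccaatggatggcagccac
Chac1: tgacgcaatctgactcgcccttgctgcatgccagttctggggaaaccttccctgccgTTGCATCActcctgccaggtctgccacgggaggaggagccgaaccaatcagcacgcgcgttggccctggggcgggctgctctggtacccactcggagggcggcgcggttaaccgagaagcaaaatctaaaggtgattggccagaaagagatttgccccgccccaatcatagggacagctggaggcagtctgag
Atf3: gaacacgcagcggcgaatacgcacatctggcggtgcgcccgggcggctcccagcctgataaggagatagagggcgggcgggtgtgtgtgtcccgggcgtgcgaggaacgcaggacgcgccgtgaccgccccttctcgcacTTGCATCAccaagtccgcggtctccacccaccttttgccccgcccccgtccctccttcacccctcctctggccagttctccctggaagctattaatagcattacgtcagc

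The motifs were searched on both strands of 32851 promoter windows of the same length. The ER stress element was searched as CCAAT, then 9 bases of any kind, then CCACG, which 0.113% of all windows held, and the genes with it were Hspa5 and Pdia6. ER stress element II, searched as ATTGG, then 1 base of any kind, then CCACG, was in 0.0304% of windows and, among the 10 genes, in Herpud1. The CARE was searched as TGATGNAA, which 3.45% of windows held, and it was found for Chac1, Herpud1 and Atf3. The unfolded protein response element TGACGTGG and the cAMP response element TGACGTCA, in 0.563% and 1.55% of windows, had no match in the windows of the 10 genes. No motif match overlapped another in the 5 windows shown. These are matches of letters and not measured binding sites.

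Beside the members, some properties of the arrays moved with treatment. Xist, expressed from the inactive X chromosome, was 8.92 to 9.86 in all heart PS arrays and in cerebrum PS 1 and PS 3, and 3.32 to 4.03 in the other 7 arrays, so treatment and the sex pattern of the arrays cannot be told apart in heart. In cerebrum PS 2 was the only PS array with the low Xist of the MCT arrays, so there they are separated by 1 array only. Xist was 9.13 in heart PS 2 and 3.32 in cerebrum PS 2, although the replicate number is the same. All 10 genes of a list of glucocorticoid-induced transcripts had a higher mean with PS in each tissue, with a list mean of 8.12 to 8.56 in heart MCT against 9.37 to 9.63 in heart PS, and 8.55 to 8.64 against 9.05 to 9.31 in cerebrum. The 5 endothelial markers also had a higher mean with PS in each tissue, with a list mean of 8.17 to 8.67 against 8.91 to 9.20 in heart and 5.78 to 6.33 against 6.01 to 6.62 in cerebrum. In cerebrum these ranges overlapped, and Kdr hardly differed, at 5.35, 5.36 and 5.70 in MCT and 5.63, 5.56 and 5.25 in PS. The 10 striatal markers were all lower in cerebrum PS, with a list mean of 9.43 to 9.60 in MCT and 6.75 to 8.76 in PS. All 4 choroid plexus markers (list mean 4.96 to 7.19 in MCT, 3.91 to 4.77 in PS) and all 3 oligodendrocyte markers (8.16 to 8.88 against 7.54 to 7.93) had a lower mean in cerebrum PS as well. The atrial gene Myl7 stood at 8.53 in heart MCT 3 and 6.80 in heart PS 3, against 4.16 to 5.08 in the other heart arrays. Of the same list, Myl4 (9.62 and 9.18 against 6.99 to 7.93) and Sln (4.80 and 4.63 against 3.91 to 4.07) were also highest there. Nppa of that list went the other way, at 10.44 and 10.71 against 11.31 to 12.31. The pituitary markers averaged 9.20 in cerebrum PS 3 and 5.36 in PS 1, against 4.16 in PS 2 and 4.22 to 4.47 in the MCT cerebra. The labelled tissues carried their defining markers, with Myl2 at 11.84 to 12.05 in heart and 3.78 to 4.15 in cerebrum. The part of these values in the results was not tested, and in bulk tissue fewer cells of a type and less RNA per cell cannot be told apart.

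Whether PS altered these genes in heart is the first comparison. Chac1, Herpud1 and Pdia6 had the largest differences, 1.62-fold, 1.82-fold and 1.52-fold higher with PS, and their groups did not overlap. None of the 9 genes passed an adjusted p of 0.05 (limma, 3 arrays per group), in a comparison in which 0.330% of all transcripts did. Of the 9 genes, 5 had an unadjusted p below 0.05, all of them higher with PS, against 23.7% of all transcripts at that level and 13.3% as higher. The median difference over the 9 genes was 0.37 on the log2 scale and 7 of 9 lay above 0, whereas the median over all transcripts tested was 0.06 and 57.7% lay above 0.

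**Figure D1:**
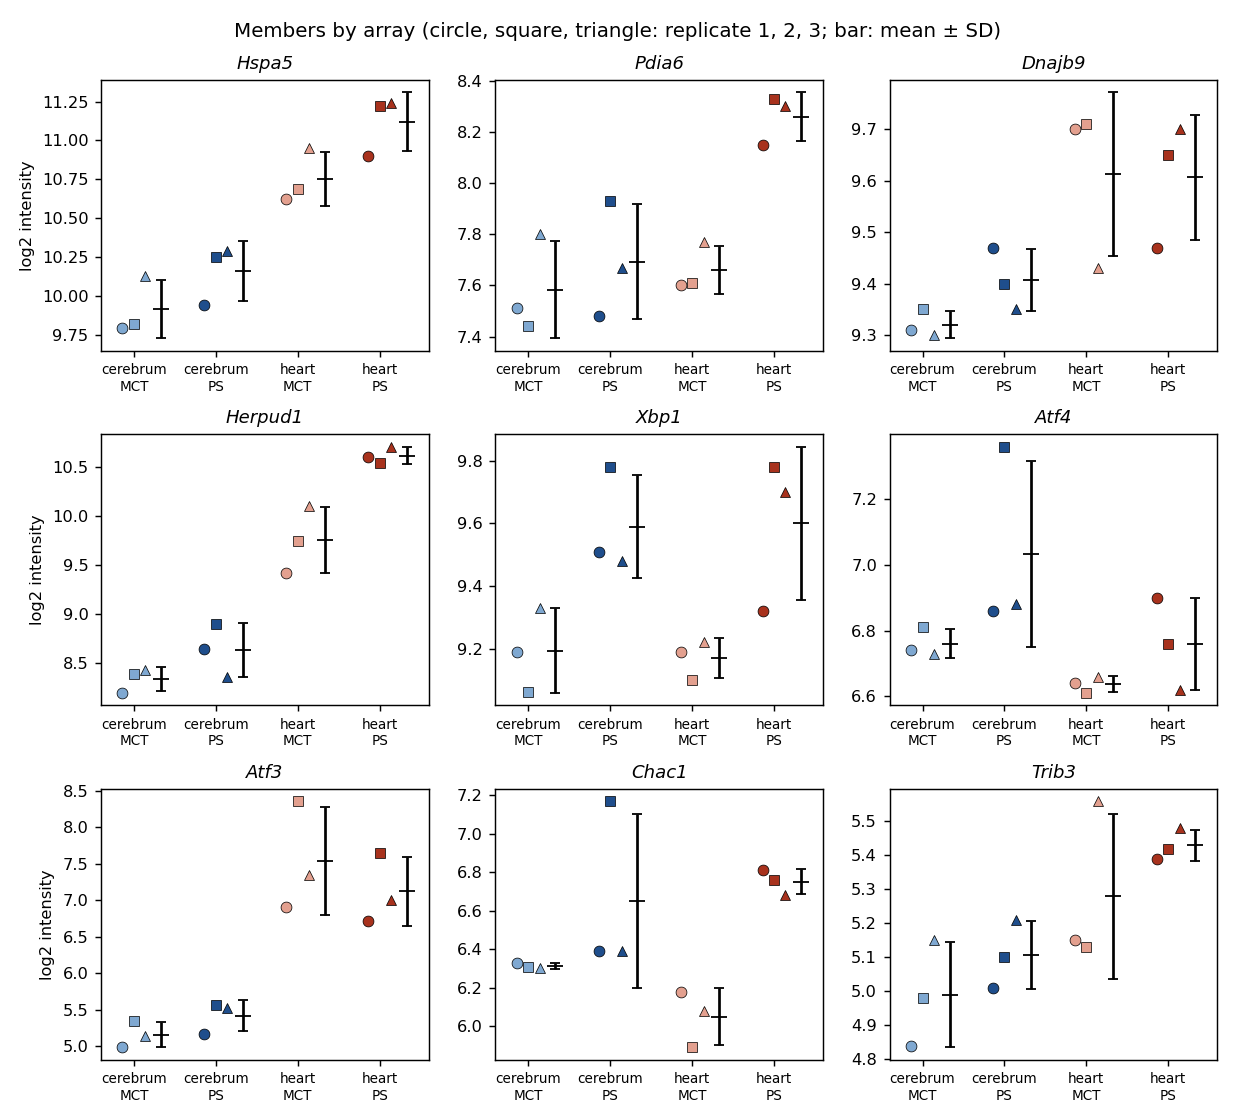
Level of each of the 9 genes on every array, on the log2 intensity scale, by tissue and treatment, with circle, square and triangle for replicates 1, 2 and 3 and a bar for the group mean ± SD (n = 3). Each panel has its own axis, since levels of different genes are not comparable. In heart, the PS arrays of Chac1, Herpud1, Pdia6 and Xbp1 lie above all MCT arrays, and Atf3 is spread widely among the heart MCT arrays, from 6.91 to 8.36.

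Among the chaperones and folding enzymes, Pdia6 encodes a protein disulfide isomerase of the ER. Pdia6 was 7.60, 7.61 and 7.77 in heart MCT and 8.15, 8.33 and 8.30 in heart PS on the log2 scale. Every PS array lay above every MCT array, and the difference was 0.60 ± 0.12 (SE, adjusted p = 0.101, limma). Hspa5 encodes BiP, the ER lumenal chaperone that also holds the sensors inactive. Hspa5 was 10.62, 10.69 and 10.95 in heart MCT and 10.90, 11.22 and 11.24 in heart PS, and the lowest PS array lay below the highest MCT array, MCT 3. The difference was 0.37 ± 0.15 (adjusted p = 0.192). Dnajb9, an ER co-chaperone of BiP, was 9.70, 9.71 and 9.43 in heart MCT and 9.47, 9.65 and 9.70 in heart PS. The Dnajb9 groups overlapped and the difference was -0.01 ± 0.13 (adjusted p = 0.980), with an unadjusted 95% interval of -0.31 to 0.30, and its sign turned under quantile normalization and under centring of each array.

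Herpud1 encodes an ER membrane protein of the degradation machinery that removes misfolded proteins. Herpud1 was 9.42, 9.74 and 10.10 in heart MCT and 10.60, 10.54 and 10.71 in heart PS. The PS arrays lay close together and above all MCT arrays, and the difference of 0.86 ± 0.18 (adjusted p = 0.114) was the largest of the 9 genes. Chac1 encodes an enzyme that degrades glutathione and is a target of ATF4. Chac1 was 6.18, 5.89 and 6.08 in heart MCT and 6.81, 6.76 and 6.68 in heart PS. Its groups did not overlap, and the difference was 0.70 ± 0.12 (adjusted p = 0.0820, 1.62-fold). Trib3, a pseudokinase induced by ATF4 and CHOP, was 5.15, 5.13 and 5.56 in heart MCT and 5.39, 5.42 and 5.48 in heart PS, and these groups overlapped (difference 0.15 ± 0.14, adjusted p = 0.532).

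Of the transcription factors, Xbp1 was 9.19, 9.10 and 9.22 in heart MCT and 9.32, 9.78 and 9.70 in heart PS. The Xbp1 groups did not overlap, and the difference was 0.43 ± 0.15 (adjusted p = 0.156). Atf4 was 6.64, 6.61 and 6.66 in heart MCT and 6.90, 6.76 and 6.62 in heart PS, with the third PS array inside the MCT range (difference 0.12 ± 0.12, adjusted p = 0.531). Atf3, an early stress-induced factor, was 6.91, 8.36 and 7.34 in heart MCT and 6.72, 7.64 and 7.0 in heart PS. Atf3 was the only one of the factors with a lower PS mean, by -0.42 ± 0.38 (adjusted p = 0.505), and its heart MCT array 2 was far above the other MCT arrays. In 4 of 9 genes (Xbp1, Pdia6, Chac1 and Herpud1) all PS arrays lay above all MCT arrays in heart, against 17.2% of all transcripts.

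Leaving out heart MCT 3, which had the high Myl7 and the highest MCT value in 6 of 9 genes, brought 4 members past the threshold. Herpud1 was then higher by 1.04 (adjusted p = 0.00665, limma), Chac1 by 0.715 (adjusted p = 0.0126), Pdia6 by 0.655 (adjusted p = 0.0107) and Hspa5 by 0.465 (adjusted p = 0.0475). In that fit 26.8% of all transcripts passed, and 13.2% of all passed as higher. Leaving out MCT 3 and PS 3 together left 3 members past the threshold: Herpud1 0.99 (adjusted p = 0.0345), Chac1 0.75 (adjusted p = 0.0432) and Pdia6 0.635 (adjusted p = 0.0460), with 9.23% of all transcripts past it and 3.49% of all as higher.

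**Figure D2:**
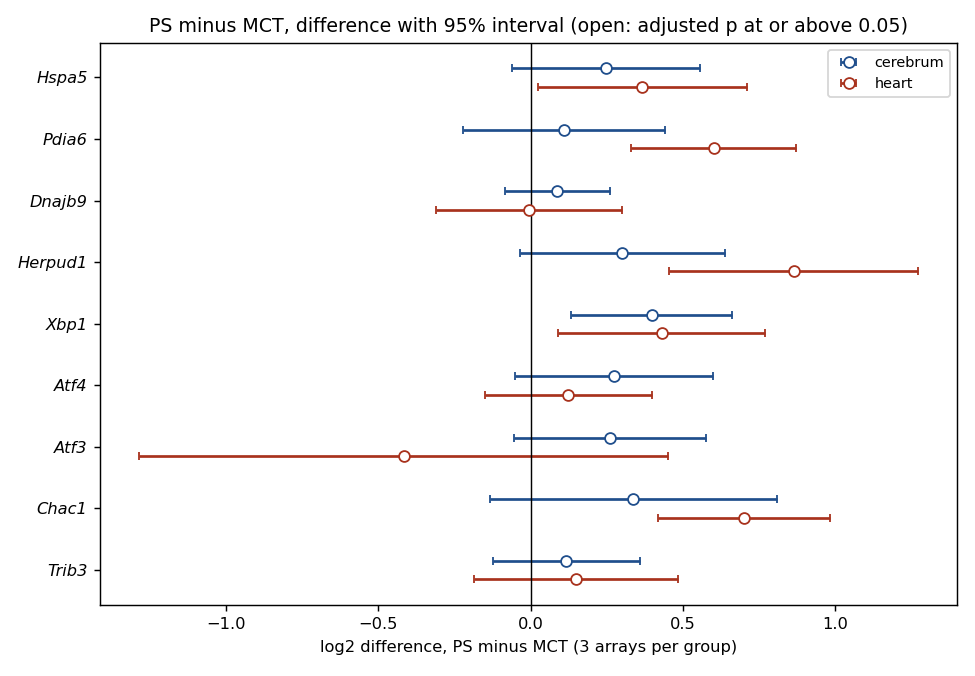
Log2 difference, PS minus MCT, for each of the 9 genes in cerebrum (blue) and heart (red), with the unadjusted 95% interval (3 arrays per group); open symbols did not pass an adjusted p of 0.05. No gene passed in either tissue, and the heart intervals of Herpud1, Chac1, Pdia6, Xbp1 and Hspa5 and the cerebrum interval of Xbp1 lie above 0.

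In cerebrum none of the 9 genes passed (limma, 5.76% of all transcripts passed, with 1.83% of all higher). All 9 differences were above 0 (45.0% of all transcripts were), with a median of 0.26 over the 9 genes against -0.03 over all transcripts. Of the 9 genes, 1 had an unadjusted p below 0.05, against 29.0% of all transcripts. This was Xbp1, which was 9.19, 9.06 and 9.33 in cerebrum MCT and 9.51, 9.78 and 9.48 in cerebrum PS. The difference of Xbp1 was 0.40 ± 0.11 (adjusted p = 0.0752, limma). In 3 of 9 genes (Xbp1, Atf4 and Chac1) every PS array lay above every MCT array, against 12.4% of all transcripts.

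Chac1 was 6.33, 6.31 and 6.30 in cerebrum MCT and 6.39, 7.17 and 6.39 in cerebrum PS, and its difference was 0.34 ± 0.20 (adjusted p = 0.305). Atf4 was 6.74, 6.81 and 6.73 in cerebrum MCT and 6.86, 7.36 and 6.88 in cerebrum PS (difference 0.27 ± 0.14, adjusted p = 0.233). In both genes PS 2 stood far above the other PS arrays. Herpud1 was 8.19, 8.38 and 8.42 in cerebrum MCT and 8.64, 8.90 and 8.35 in cerebrum PS (difference 0.30 ± 0.14, adjusted p = 0.213), and PS 3 lay within the MCT range.

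Pdia6 was 7.51, 7.44 and 7.80 in cerebrum MCT and 7.48, 7.93 and 7.67 in cerebrum PS (difference 0.11 ± 0.14, adjusted p = 0.635). Hspa5 was 9.79, 9.82 and 10.13 in cerebrum MCT and 9.94, 10.25 and 10.29 in cerebrum PS (difference 0.25 ± 0.13, adjusted p = 0.255). Both genes had overlapping groups. Dnajb9 was 9.31, 9.35 and 9.30 in cerebrum MCT and 9.47, 9.40 and 9.35 in cerebrum PS (difference 0.09 ± 0.07, adjusted p = 0.467). Atf3 was 4.99, 5.34 and 5.14 in cerebrum MCT and 5.17, 5.56 and 5.52 in cerebrum PS (difference 0.26 ± 0.14, adjusted p = 0.243). Trib3 lay just above the filter, at 4.84, 4.98 and 5.15 in MCT and 5.01, 5.10 and 5.21 in PS (difference 0.12 ± 0.10, adjusted p = 0.487).

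Among the PS cerebra, PS 2 stood highest. It is the PS cerebrum with an Xist value as low as in the MCT arrays, and its 9 genes lay a median of 0.40 above the MCT mean against 0.08 for PS 1 and 0.12 for PS 3. PS 2 was the highest PS array in 6 of 9 genes, Chac1, Pdia6, Herpud1, Atf4, Atf3 and Xbp1. Without PS 2 the median difference was 0.14 over the 8 genes still tested, and Chac1 was at 0.08. With only the arrays of low Xist, PS 2 alone against the 3 MCT cerebra, 4 members passed: Chac1 0.86 (adjusted p = 0.00908, limma), Atf4 0.60 (adjusted p = 0.0249), Herpud1 0.57 (adjusted p = 0.0476) and Xbp1 0.59 (adjusted p = 0.0485). This fit assumes that the lone PS array varies like the MCT arrays, and 9.97% of all transcripts passed in it, 4.02% of all as higher. In this array the microglia markers averaged 7.30, against 6.71 and 6.91 in the other PS cerebra and 6.92 to 7.03 in the MCT cerebra. Against the MCT cerebra this lay mostly in C1qa (7.75 against 6.64 to 6.91) and Cd68 (7.44 against 6.96 to 7.10). Csf1r was 8.34 against 8.20 to 8.29, and Cx3cr1 and Aif1 did not exceed the MCT range. The part of these values in the result was not tested.

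**Figure D3:**
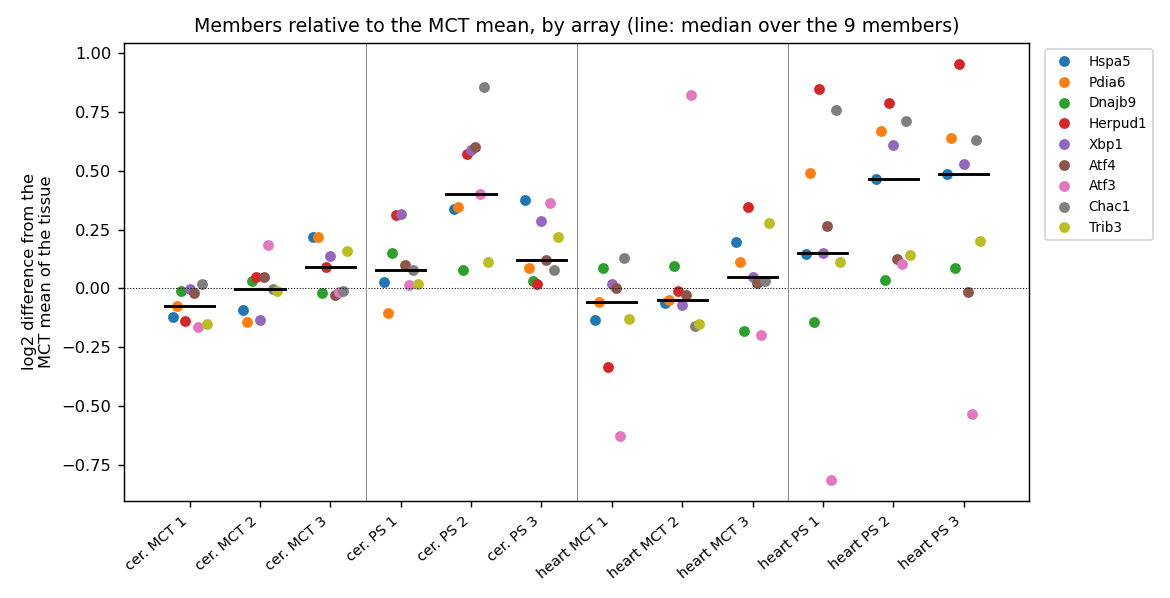
Log2 difference of each of the 9 genes from the mean of the 3 MCT arrays of the same tissue, by array, with a line at the median over the genes. In cerebrum, PS 2 has the highest median, 0.40, and in heart the medians of PS 1, PS 2 and PS 3 are 0.15, 0.47 and 0.49.

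Herpud1, Atf3 and Hspa5 were higher in heart than in cerebrum under either treatment. These comparisons use the same arrays as the PS comparisons, so their values stand side by side and do not add evidence to each other. The fits took heart and cerebrum arrays as independent, although some may come from the same mice, so a pairing by animal may be ignored. Herpud1 was higher in heart by 1.42 ± 0.17 under MCT (adjusted p = 8.04e-05, limma) and by 1.99 ± 0.14 under PS (adjusted p = 7.44e-06). Atf3 was higher in heart by 2.38 ± 0.32 (adjusted p = 1.52e-04) under MCT and by 1.70 ± 0.23 (adjusted p = 2.89e-04) under PS, and Hspa5 by 0.84 ± 0.14 (adjusted p = 6.06e-04) and 0.96 ± 0.14 (adjusted p = 3.79e-04). The filter was on the mean over the arrays of both tissues. Atf3 averaged 5.16 in cerebrum MCT, below that filter of 5.23, and 7.54 in heart MCT. Under MCT it was thus tested only through heart, which favours a call as higher there. For Herpud1, Atf3 and Hspa5 every heart array lay above every cerebrum array, as in 36.9% of all transcripts under MCT and 40.8% under PS. The same held for Dnajb9 under MCT and for Pdia6 and Trib3 under PS. Under MCT, every heart array of Atf4 and Chac1 lay below every cerebrum array.

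Under MCT, 4 of the 8 genes tested passed as higher in heart and none as lower, in a comparison where 75.5% of all transcripts passed, 35.2% as higher and 40.3% as lower. The fourth was Dnajb9, higher by 0.29 ± 0.12 (adjusted p = 0.0463), a call that was lost under quantile normalization, with transcripts of several symbols or none tested too, under the replicate block and on leaving out any of 5 of the 6 arrays. Trib3 was below the filter under MCT and was not tested there. Under PS, 5 of 9 genes passed as higher in heart and none as lower (75.9% of all transcripts passed, 38.3% as higher and 37.6% as lower). Pdia6 was higher in heart by 0.57 ± 0.13 under PS (adjusted p = 0.00471) and by 0.08 ± 0.13 under MCT (adjusted p = 0.603), and Trib3 by 0.32 ± 0.09 under PS (adjusted p = 0.0117). Trib3 averaged 5.11 in cerebrum PS and 5.43 in heart PS, against a filter of 5.22. It was thus tested under PS only through heart, the tissue in which it passed as higher. Xbp1 did not pass, with differences of -0.02 under MCT and 0.01 under PS (unadjusted 95% intervals -0.28 to 0.24 and -0.33 to 0.35), and its sign turned under other scalings. Centring on transcripts with 1 symbol brought 6 of 8 members past the threshold under MCT, with Pdia6 (0.41, adjusted p = 0.0198) and Xbp1 (0.31, adjusted p = 0.0368) gained, in a fit in which 77.5% of all transcripts passed and 47.3% as higher. Under PS, Dnajb9 stood at 0.20 ± 0.10 (adjusted p = 0.0903) and passed under that centring (0.42, adjusted p = 0.00544), under centring of each array (0.26, adjusted p = 0.0494) and without heart PS 1 (0.27, adjusted p = 0.0462). Atf4 and Chac1 did not pass in either comparison, at -0.12 and -0.27 for Atf4 and -0.26 and 0.10 for Chac1, and under MCT the sign of both turned when arrays were centred on transcripts with 1 symbol. Between tissues Chac1 passed only on leaving out single arrays among the alternatives run: as lower in heart under MCT without heart MCT 1 (-0.33, adjusted p = 0.0328) or MCT 3 (-0.28, adjusted p = 0.0477), and as higher in heart under PS without cerebrum PS 2 (0.36, adjusted p = 0.0134).

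**Figure D4:**
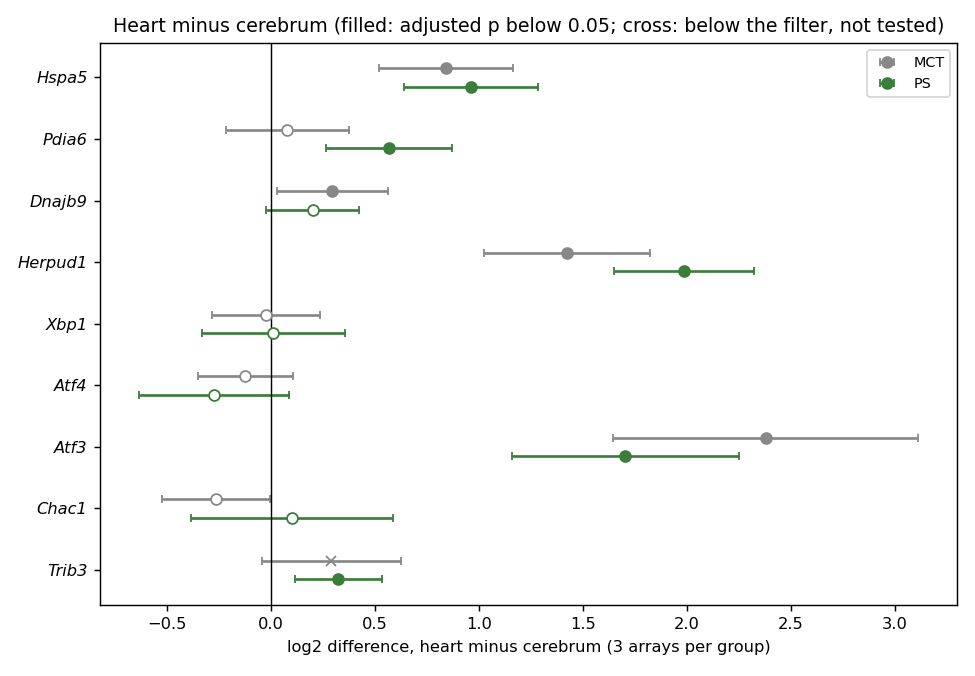
Log2 difference, heart minus cerebrum, for each of the 9 genes under MCT (grey) and under PS (green), with the unadjusted 95% interval (3 arrays per group). Filled symbols passed an adjusted p of 0.05, and crosses mark the gene below the filter. Herpud1, Atf3 and Hspa5 are filled under both treatments, and Xbp1, Atf4 and Chac1 under neither.

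Whether the PS difference itself differed between heart and cerebrum was tested over all 12 arrays, and none of the 8 members tested passed, against 1.52% of all transcripts. The arrays were taken as independent in this fit as well. The largest difference of differences was for Atf3, at -0.68 ± 0.44 (adjusted p = 0.425, limma), followed by Herpud1 at 0.56 ± 0.24 (adjusted p = 0.227) and Pdia6 at 0.49 ± 0.19 (adjusted p = 0.181). Chac1 stood at 0.36 ± 0.25 (adjusted p = 0.447). At an unadjusted p below 0.05 there were 2 members, Pdia6 and Herpud1, against 19.2% of all transcripts. Without heart MCT 3 the value of Herpud1 was 0.74 (adjusted p = 0.0428), 12.8% of all transcripts then passing.

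The other genes of the pathway were a list of 80, of which 72 were measured alone. In heart 66 were tested and none passed (limma), against 0.330% of all transcripts. Of the 66, 21 had an unadjusted p below 0.05, against 23.7% of all transcripts, and 56 lay above 0 with a median of 0.27, against 57.7% above 0 and a median of 0.06 for all. By role, the median was 0.32 for 13 ER chaperones and folding enzymes with 11 above 0, 0.29 for 9 genes of ER-associated degradation with 7 above 0, 0.22 for 11 aminoacyl-tRNA synthetases with all 11 above 0, and 0.46 for 7 other transcription factors with all 7 above 0. The genes of lowest p in these lists were Hsp90b1 (0.38, adjusted p = 0.153) and Calr (0.32, adjusted p = 0.171), ER chaperones. In degradation they were Os9 (0.64, adjusted p = 0.119), a lectin, and Edem1 (0.53, adjusted p = 0.190), which helps extract misfolded glycoproteins. Of the synthetases, Eprs stood at 0.44 (adjusted p = 0.148) and Yars at 0.35 (adjusted p = 0.150). The transcription factors of lowest p were Cebpb (0.90, adjusted p = 0.0951), a partner of ATF4, and Nfe2l2 (0.46, adjusted p = 0.157), which drives antioxidant genes.

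The medians of the remaining lists in heart ran from 0.06 to 0.25. The 3 sensors had a median of 0.19, with Eif2ak3, which encodes PERK, at 0.53 (adjusted p = 0.159). The 10 genes of eIF2 phosphorylation and exchange had a median of 0.11, with Eif2ak4, the amino acid sensing kinase, at 0.39 (adjusted p = 0.181). Of 10 amino acid response targets of ATF4, 7 lay above 0 with a median of 0.25, led by Ddit4, an inhibitor of mTORC1 signalling that glucocorticoids also induce, at 1.27 (adjusted p = 0.119) and Slc3a2, an amino acid transporter chain, at 0.62 (adjusted p = 0.123). The stress-induced death genes had 2 of 3 above 0 and a median of 0.06, and Casp12 stood at -0.49 (adjusted p = 0.421). Without heart MCT 3, 15 of the pathway genes passed, among them Cebpb (1.05, adjusted p = 0.00665), Slc3a2 (0.77, adjusted p = 0.0104), Ddit4 (1.51, adjusted p = 0.0127), Eprs (0.57, adjusted p = 0.0153), Os9 (0.71, adjusted p = 0.0192), Eif2ak3 (0.66, adjusted p = 0.0360) and Hsp90b1 (0.43, adjusted p = 0.0410), in the fit in which 26.8% of all transcripts passed.

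In cerebrum 1 of 67 pathway genes tested passed, as higher, against 5.76% of all transcripts passing in either direction and 1.83% of all as higher. Of the 67, 16 had an unadjusted p below 0.05, against 29.0% of all. Above 0 lay 40 of the 67 (45.0% of all) and the median was 0.05 (-0.03 for all). The gene that passed was Syvn1, the ubiquitin ligase of ER-associated degradation, at 7.51, 7.45 and 7.51 in MCT and 7.81, 8.02 and 7.85 in PS, a difference of 0.40 ± 0.08 (adjusted p = 0.0431). Its PS arrays all lay above its MCT arrays, and the call was lost in 5 of the 6 leave-one-out fits, under centring of each array, under the replicate block and with transcripts of several symbols or none tested too (adjusted p from 0.0335 to 0.180 over the alternatives). Genes of lowest p that did not pass were Derl2 (-0.35, adjusted p = 0.0530), Iars (0.38, adjusted p = 0.0605) and Slc3a2 (0.30, adjusted p = 0.0685). Between tissues under MCT, 47 of 66 pathway genes passed, near the 75.5% of all transcripts, with 22 higher and 25 lower in heart. This balance turned with the scaling, to 28 higher and 18 lower under quantile normalization and 33 higher and 15 lower under centring on transcripts with 1 symbol, and under PS it was 25 higher and 22 lower.

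**Figure D5:**
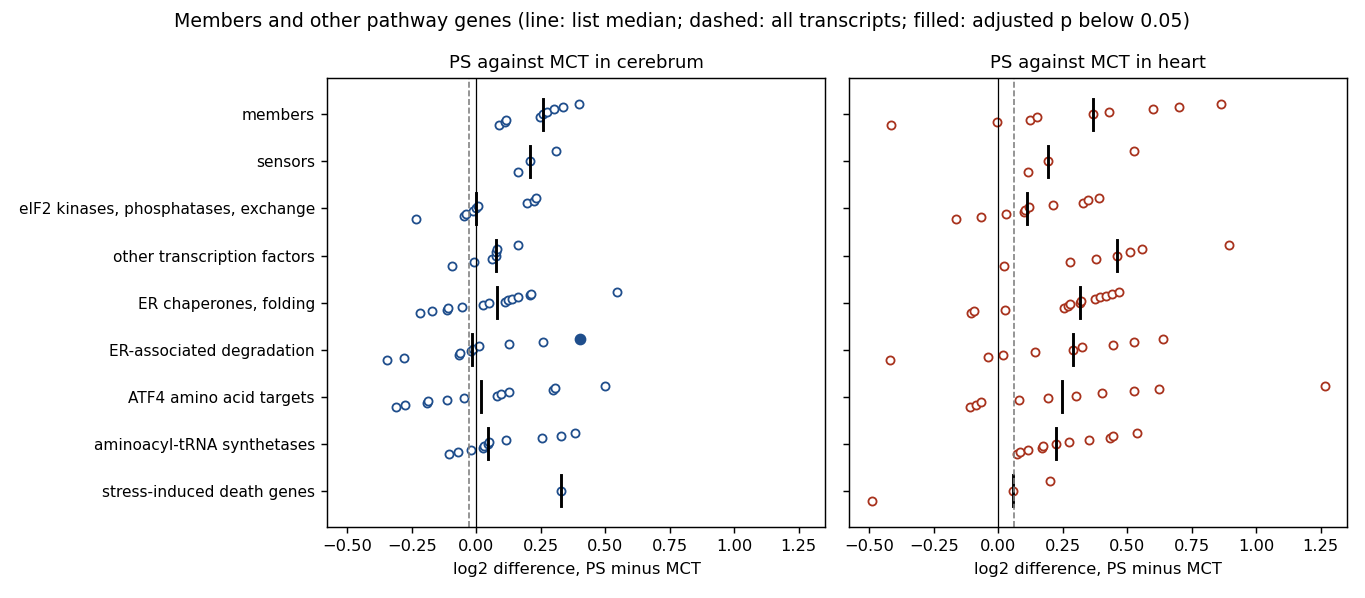
Log2 difference, PS minus MCT, of the 9 members and of the other pathway genes by role, in cerebrum (left) and heart (right), with a line at each list's median, a dashed line at the median of all transcripts tested, and filled symbols for an adjusted p below 0.05. In heart the list medians run from 0.06 for the death genes to 0.46 for the other transcription factors, and in cerebrum Syvn1 is the filled symbol.

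The genes whose pattern was most like 3 of the members were found among 11309 transcripts measured in both tissues. Likeness is Pearson's r over 12 arrays after the tissue mean was taken off, so it contains the PS difference that both genes share, and it is given as a description. For Hspa5 they were Slc52a3 (r = 0.934), Atf6b (0.927), Lrp5 (0.927), Rpn1 (0.922) and Calr (0.922), of which Rpn1 is a subunit of the ER oligosaccharyltransferase. For Chac1 they were Hpcal1 (0.961), Kcnip3 (0.920), Yars (0.912), Pqbp1 (0.902) and Zfp39 (0.892). For Atf4 they were 4833420G17Rik (0.930), Lgals9 (0.923), Nfil3 (0.921), Nrm (0.920) and Klf2 (0.914). In the same order, r with Atf4 was 0.97, 0.99, 0.96, 0.93 and 0.91 within cerebrum. Within heart it was 0.74, 0.76, 0.74, 0.91 and 0.94.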

How the data were processed

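RNA was column-purified and biotin-labelled for whole-transcript Affymetrix arrays, per the labels' protocols. Per the submitters' processing notes, the authors used Affymetrix Expression Console; its version, its background correction and the build were not given in the sources used here. Values deposited by the authors were read as log2 intensity, since they run from 1.9 to 13.11 and the natural log of a 16-bit scanner's maximum is 11.09. Array medians were 4.89 to 5.0 and no further normalization was applied.

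Of 35556 transcript clusters, 21218 had 1 gene symbol, 1881 several and 12457 none. Transcripts with 1 symbol and a mean reaching the 40th percentile were tested in R 4.3.3 by lmFit and eBayes of limma 3.58.1, with Benjamini-Hochberg adjustment over all of them and a threshold of 0.05. PS was compared with MCT within each tissue, heart with cerebrum within each treatment, and the difference of the PS effect over 12 arrays. Scripts were tested on simulated data. The small number of arrays limits the precision.

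The members and the pathway lists were chosen with earlier results of these data known. All measured members are named. Other pathway genes could be named where they passed the threshold or were among the 2 of lowest p in their list, as could the 5 transcripts most like Hspa5, Atf4 and Chac1. Atf6b, Rpn1 and Calr follow from that rule. Xist, Myl2, the atrial genes and the microglia genes come from marker lists. Promoter sequences come from RefSeq on GRCm38.p6. Dnajc3, Canx, Rbm39 and Hnrnpa3 were chosen after their values were seen. Same-numbered arrays did not deviate together by a correlation over 0.1 in every pair, so the numbers were not taken as pairs. Heart PS 2 and cerebrum PS 2 also differed in Xist. Alternatives covered scaling, filters, limma's intensity trend, a replicate block, subsets of arrays and leaving out each array.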

Additional observations from a re-analysis of the deposited data

Results flagged for a closer look

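Cebpb, a transcription factor that partners ATF4, was the pathway gene whose PS difference differed between the tissues by a test of the difference itself. Cebpb was 5.26, 5.01 and 5.26 in cerebrum MCT and 5.13, 5.11 and 5.26 in cerebrum PS. In heart it was 6.01, 5.77 and 6.34 in MCT and 6.81, 6.92 and 7.08 in PS, and every PS heart lay above every MCT heart. The PS difference was larger in heart by 0.91 ± 0.20 (SE, adjusted p = 0.0463, limma), and it was 1 of 66 pathway genes tested to pass, which is no more than the 1.52% of all transcripts that passed. The filter was on the mean over all 12 arrays, at 5.23. Cebpb averaged 5.18 in cerebrum MCT and 5.17 in cerebrum PS, below it, so it was tested only through heart. The call was lost in 10 of the 12 leave-one-out fits, and also under quantile normalization, under centring on transcripts with 1 symbol, with no filter on low values, with transcripts of several symbols or none tested too and under the replicate block. It was also absent with the filter at the 60th percentile, where 1 other pathway gene passed. The adjusted p of Cebpb was 0.00856 to 0.14 over the alternatives that tested it. It was tested on the same arrays that gave the heart difference of 0.90, so the values are not independent.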

How the results depend on the processing

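With 3 arrays per group the counts depended on single arrays. Of the members, 0 passed in cerebrum in every leave-one-out fit and 0 to 4 in heart, the 4 without MCT 3; 3 to 5 passed between tissues under MCT, 5 to 6 under PS and 0 to 1 for the difference of the PS effect. Pathway genes passing ranged over 0 to 7 in cerebrum (7 without PS 3, against 1), 0 to 15 in heart (15 without MCT 3), 42 to 53 and 43 to 50 between tissues, and 0 to 7 for the difference (7 without heart MCT 3). All transcripts passing ranged over 0 to 1557 in cerebrum (0 without MCT 1 or PS 1, 2 without MCT 2, 145 without PS 2, 1557 without PS 3; 734 with all), 4 to 3416 in heart (4 to 12 without any array but MCT 3; 42 with all), 8619 to 10315 and 8951 to 9423 between tissues, and 3 to 1629 for the difference (194 with all). The cause was not tested.

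Under the replicate block, which takes the replicate number as a pairing although correlations of same-numbered arrays were -0.21 to 0.12 between PS and MCT and 0.06 to 0.22 between tissues, all 6 of the latter above 0 but 5 of them below 0.1, pathway genes passing were 0 in cerebrum, 1 in heart and 0 for the difference, and all transcripts 0, 88 and 22. With transcripts of several symbols or none tested too, all transcripts passing were 189 in cerebrum and 17 in heart, and pathway genes 0 in cerebrum and 0 for the difference. Arrays of low Xist gave 4 members, 5 pathway genes and 1269 transcripts in cerebrum. Without the arrays of high Myl7, heart gave 3 members, 5 pathway genes and 1176 transcripts. Pathway genes in cerebrum were 3 at the 60th percentile and 2 with the intensity trend. At the 60th percentile 6396 transcripts passed between tissues under MCT (9610 otherwise) and 3 members under PS. Pathway genes for the difference were 0 under quantile normalization, with no filter and under centring on transcripts with 1 symbol, an alternative added after the data were seen, 2 under centring of each array and 3 with the trend. All transcripts passing for the difference were 294 under centring of each array.

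Signs turned for heart Dnajb9 (0.048 under quantile normalization, 0.013 centring each array, -0.098 to 0.062 leaving out an array), cerebrum Pdia6 (-0.0083 to 0.22), and between tissues under MCT for Xbp1 (0.31 under 1-symbol centring, -0.09 to 0.045), Atf4 (0.18 under quantile normalization, 0.21 under 1-symbol centring) and Chac1 (0.07 under 1-symbol centring). Under PS they turned for Xbp1 (-0.032 under quantile normalization, -0.08 to 0.15) and Chac1 (-0.03 to 0.36), and for the difference of the PS effect for Xbp1 (-0.017 under quantile normalization, -0.083 under 1-symbol centring, -0.057 to 0.17) and Atf4 (-0.24 to 0.013). The 1-symbol centring moved the median of all transcripts between tissues under MCT from -0.07 to 0.26 and under PS from 0.02 to 0.24. It moved the share of calls that were higher from 46.6% to 61.0% and from 50.5% to 61.3%, in cerebrum from 31.7% to 48.0%, and for the difference from 72.2% to 49.0%. Quantile normalization gave 41.9% in cerebrum, and centring each array 17.6% there and 85.4% for the difference.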

Other observations

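Genes outside the 10 that carry the ER stress element or element II in their promoter window were also read, as a description of a list defined by sequence alone. In heart 16 such genes were tested, 14 had a difference above 0 and the median was 0.35, against a median of 0.07 and 59.6% above 0 over all genes tested, and none passed the threshold (limma), against 0.330% of all transcripts, with 9 of 16 at an unadjusted p below 0.05, against 23.7% of all. Among them were Syvn1 (0.44, adjusted p = 0.206, limma), Dnajc3 (0.44, adjusted p = 0.173), which encodes a co-chaperone and inhibitor of PERK, Hsp90b1 (0.38, adjusted p = 0.153) and Canx (0.28, adjusted p = 0.188), a lectin chaperone. Several of these genes are on the pathway list as well. The RNA-binding protein genes Rbm39 (0.49, adjusted p = 0.152) and Hnrnpa3 (0.43, adjusted p = 0.153) also carry the letters. Dnajc3, Canx, Rbm39 and Hnrnpa3 were chosen after their values were seen.

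In cerebrum the same kind of list had 17 genes tested, of which 7 lay above 0, against 45.7% of all genes. The median was -0.06, against -0.02 over all genes. At an unadjusted p below 0.05 (limma) were 4 of 17, against 29.0% of all transcripts. Past the threshold were 2 of 17, Syvn1 (0.40, adjusted p = 0.0431) and Hnrnpa3 (-0.68, adjusted p = 0.0136), against 5.76% of all transcripts. No transcript passed in cerebrum under the replicate block, without MCT 1 or without PS 1, so both calls were lost there. Genes with the CARE, 213 tested in heart, had a median of 0.08 with 132 above 0, near the median of all genes, and in cerebrum 210 had a median of -0.02.

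The transcript cluster that Ddit3 shares with Mars1 cannot be assigned to either gene. It was 6.09, 6.03 and 6.22 in heart MCT and 6.37, 6.52 and 6.31 in heart PS, so that every PS array lay above every MCT array. Of all transcripts tested in heart, 17.2% did so. In cerebrum the shared cluster was 6.40, 6.32 and 6.43 in MCT and 6.04, 6.34 and 6.27 in PS, with overlapping groups. Mars1 also had a cluster with its symbol alone. That cluster was 7.25, 7.51 and 7.52 in heart MCT and 7.55, 7.62 and 7.45 in heart PS, with overlapping groups.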
